A study of Oryza sativa Japonica Group with 30 samples.

Results

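The intervals described here are stretches of the rice genome where DNA pulled down with an antibody against SNAC1 was detected in every library of droughted ZH11 and stood at the lowest recorded value in most libraries of watered ZH11. They were chosen from one table of 21162 intervals that compares ZH11-N with ZH11-D. In that table each library's signal has a floor, the value that stands for a count of 1, and a chosen interval was above the floor in all 3 ZH11-D libraries and at the floor in at least 2 of the 3 ZH11-N libraries. The rule gave 459 intervals, with all 12 chromosomes represented and 1 interval on the pseudomolecule Sy. They are called drought intervals below, after the rule. The name must not be read as absence without drought, because 417 of the 459 (90.8%) were above the floor in 1 ZH11-N library and only 42 were at the floor in all 3.

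SNAC1 is a transcription factor of the NAC family, a family found only in plants whose members bind DNA through a conserved domain at the N-terminal end. Its gene is switched on by drought in rice, and SNAC1 overexpression is known for improving drought resistance. In ChIP-Seq, proteins are cross-linked to DNA, the chromatin is sheared, and the fragments held by the antibody are sequenced, so that a bound stretch collects more reads than its surroundings. Reads also come from unbound chromatin, and for that reason a low count is not by itself a bound site.

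The RNA-Seq libraries came from leaves. For ChIP-Seq the paper's protocol names shoot tissue, while its results name leaf samples. Both kinds were taken at the 4-leaf stage, from plants of both genotypes that shared their pots. ZH11-N is the wild-type variety ZH11 with normal watering, and ZH11-D is ZH11 after water was withheld for 10 to 15 days, until its leaves had rolled and yellowed. SNAC1-N is OE-19, a single ZH11-derived transgenic line that carries the SNAC1 coding sequence behind a maize ubiquitin promoter, with normal watering. Each of these conditions had 3 immunoprecipitated libraries from independent replicates. Each also had 3 input libraries, which have no signal values of their own among those read here. OE-19 under drought has RNA-Seq libraries only. The antibody was a rabbit polyclonal against SNAC1.

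The transcript of the factor itself was read in every RNA-Seq library. It does not give the amount of SNAC1 protein. SNAC1 (LOC_Os03g60080) had an FPKM of 27.2, 44.8 and 39.7 in ZH11-N replicates 1 to 3. In ZH11-D it was 329, 530 and 430, and in SNAC1-N it was 764, 995 and 781. These 3 conditions, the ones with ChIP-Seq libraries, did not overlap, with ZH11-N lowest and SNAC1-N highest. OE-19 under drought had 667, 981 and 747, which overlapped SNAC1-N. These are values of bulk tissue, in which a change in the share of expressing cells and a change within each cell cannot be told apart.

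The libraries differed in how often they reached the floor. Summed over the 21162 intervals, the recovered counts ranged from 1869015 in ZH11-N2 to 5494104 in ZH11-D2. ZH11-N2 was at the floor at 3474 intervals (16.4%), while the other 5 libraries of the table were at the floor at 1.47% to 7.22%. Software that takes input reads away from each count commonly resets low results to 1, and whether that was done is not given in the sources used here. A count at the floor therefore need not mean that no read fell there.

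Signal in ZH11-D chose these intervals and is given as a description. The median count of a drought interval was 50 in ZH11-D1, 112 in ZH11-D2 and 58 in ZH11-D3. As a share of the median interval of the same library this was 78.1%, 72.3% and 82.9%. The typical drought interval was therefore of ordinary strength or slightly below it under drought. Some were far stronger. The highest counts among them were 373, 800 and 629 in ZH11-D1 to ZH11-D3. The upper quartiles over all intervals were 124, 274 and 139. Per kilobase of interval the medians were 85.5, 200 and 104 counts, against 79.9, 194 and 87.0 over all intervals, so that the lower totals went with shorter intervals. Across the 459 intervals the Spearman rho between ZH11-D libraries was 0.527 to 0.583, lower than the 0.768 to 0.796 across all intervals, with interval width shared by both libraries of each pair.

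In ZH11-N the picture was set by which library was read. The medians in ZH11-N1 and ZH11-N2 were at 1, the floor, and the median in ZH11-N3 was 20, which is 22% of the median interval of that library. ZH11-N1 and ZH11-N2 were at the floor together, with ZH11-N3 above it, at 302 drought intervals. ZH11-N2 and ZH11-N3 made up the pair at 86, and ZH11-N1 and ZH11-N3 at 29. ZH11-N2, which reached the floor most often in the whole table, was at the floor in 430 of the 459. When the choice was made without ZH11-N2, 71 intervals were left, against 128 without ZH11-N1 and 344 without ZH11-N3. Both remaining ZH11-N libraries then had to be at the floor, which made the rule stricter. These numbers therefore restate the floor patterns and are no separate check.

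**Figure D1:**
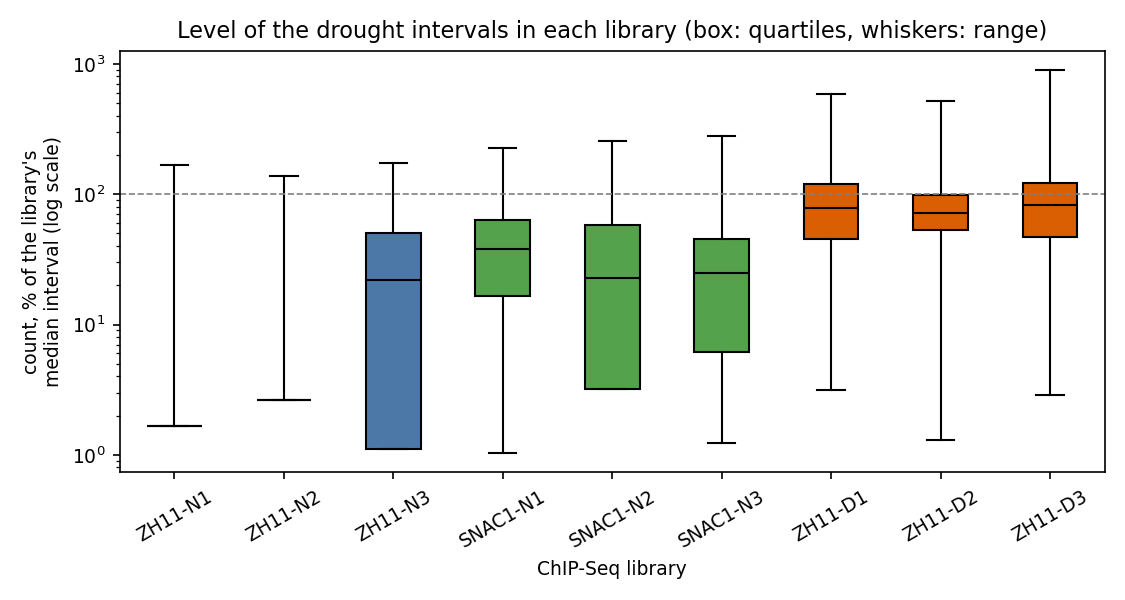
Count of the drought intervals in each ChIP-Seq library, as a percent of the median interval of that library and table (log scale). Boxes give quartiles with the median, whiskers the range, and the dashed line marks 100%. ZH11-N and ZH11-D hold 459 intervals and SNAC1-N the 430 matched ones. The medians run from 72.3% to 82.9% in ZH11-D and from 22.6% to 38.1% in SNAC1-N, and reach 22% in ZH11-N3, while ZH11-N1 and ZH11-N2 have their boxes flat on the floor.

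A ZH11-N library that did not take part in the choice gives a reading that the rule did not fix. Of the 344 intervals chosen on ZH11-N1 and ZH11-N2 alone, 42 (12.2%) were at the floor in ZH11-N3, against 2.72% of all intervals. Their median count in ZH11-N3 was 32.5, or 35.7% of the median interval, while in the ZH11-D libraries the same intervals stood at 76.8% to 85.7%. ZH11-N3 was below all 3 ZH11-D libraries on this relative scale at 230 of them (66.9%), against 35.0% of the 18758 intervals that were above the floor in all ZH11-D libraries. The held-out library had less signal at most of these places than ZH11-D, but in most cases it was above the floor. Only the ZH11-N side was held out. The ZH11-D side entered the choice, and an interval low in ZH11-N enters this table mainly through ZH11-D. The gap between them is therefore in part set by the choice.

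The other held-out libraries gave the same order with different depths. Of the 71 intervals chosen on ZH11-N1 and ZH11-N3, 42 (59.2%) were at the floor in ZH11-N2, against 16.4% of all intervals. Of the 128 chosen on ZH11-N2 and ZH11-N3, 42 (32.8%) were at the floor in ZH11-N1, against 7.22% of all intervals, and the median count was 11, or 18.3% of the median interval. On the drought side, when 2 ZH11-D libraries chose the intervals and the remaining one was read, it was at the floor at 10.7% (ZH11-D1), 1.08% (ZH11-D2) and 10.5% (ZH11-D3) of 464 to 514 intervals, where all intervals gave 6.63%, 1.47% and 7.09%.

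The strongest drought intervals were broad for their set and lay far above ZH11-N in every ZH11-D library. Positions are given on the MSU 7.0 genome. Interval 19224, on chromosome 8 from 11321433 to 11324614, had the highest signal and, at 3182 bp, the greatest width of the 459. Its deposited signal was 350, 489 and 626 in ZH11-D and 0.93, 1 and 28.1 in ZH11-N. Of the ZH11-N libraries, only replicate 3 was above the floor.
Interval 5673 (chromosome 12 from 4412129 to 4414658) gave 284, 443 and 386 in ZH11-D and 0.93, 1 and 57.0 in ZH11-N. Interval 5225, on chromosome 11 from 15342135 to 15344085, read 279, 401 and 413 in ZH11-D and 0.93, 26 and 0.78 in ZH11-N. The ZH11-N library above the floor differed between them, since it was replicate 2 at interval 5225 and replicate 3 at interval 5673.
Interval 5885, on chromosome 12 from 17462351 to 17464409, read 246, 347 and 296 in ZH11-D and 10.3, 1 and 0.78 in ZH11-N, and here replicate 1 was the library above the floor. Interval 10975, on chromosome 3 from 17625642 to 17627153, had 247, 280 and 323 in ZH11-D and 0.93, 1 and 28.9 in ZH11-N. Intervals 19291 (chromosome 8 from 15001951 to 15003790), 16555 (chromosome 6 from 6394442 to 6396524) and 11118 (chromosome 3 from 23873421 to 23875186) completed the 8 highest. At all 8 the lowest ZH11-D library lay above the highest ZH11-N library, a separation that the rule favours. Interval 16555 had the closest replicates, with 221, 197 and 208 in ZH11-D.

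Of the 42 intervals at the floor in all ZH11-N libraries, the 5 highest lay on chromosomes 9, 11 and 12, with 2 neighbours each on chromosomes 11 and 12. Interval 5417 (chromosome 11 from 26450741 to 26451995) gave 168, 143 and 231 in ZH11-D. Its neighbour, interval 5418, from 26452937 to 26454039, had 124, 160 and 179. Both were at 0.93, 1 and 0.78 in ZH11-N, the floor of each library.
On chromosome 12, interval 5848 (13652623 to 13653335) read 79.7, 103 and 159 in ZH11-D and interval 5849 (13656730 to 13657447) read 66.5, 85.5 and 77.6. Interval 20195, on chromosome 9 from 10743725 to 10744353, read 76.9, 112 and 195. The size of a fold against the floor is set by the floor itself, and none is given for these 5.

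**Figure D2:**
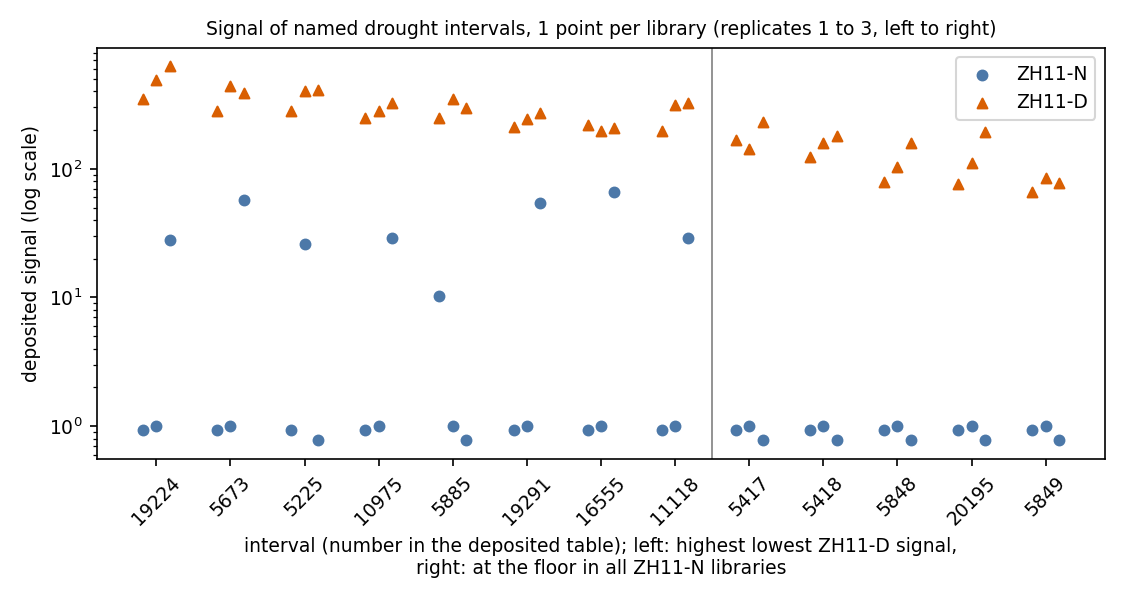
Deposited signal (log scale) of the 8 drought intervals with the highest lowest ZH11-D signal and of the 5 highest that were at the floor in all ZH11-N libraries, 1 point per library. At 7 of the 8 on the left a single ZH11-N library stands between 26 and 65.6, at interval 5885 it stands at 10.3, and on the right the ZH11-N points lie on the floor.

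Close neighbours were the exception. Of the 459 intervals, 404 had no other drought interval within 20 kb, and the other 55 formed 24 runs, 5 of them with 3 or more. On chromosome 12 from 13652623 to 13660934, 3 of the 4 intervals present were drought intervals, with summed counts of 243, 469 and 336 in ZH11-D and of 3, 3 and 6 in ZH11-N. Another run of 3 on chromosome 12, from 17462351 to 17467899, held interval 5885 and summed to 475, 1182 and 646 in ZH11-D against 17, 3 and 40 in ZH11-N. The run with the most members was of a different kind. Its 5 drought intervals on chromosome 11 from 12082385 to 12120022, among 15 intervals there, summed to no more than 78, 82 and 42 counts in ZH11-D, against 18, 6 and 12 in ZH11-N.

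Some drought intervals were only just inside the rule. The lowest ZH11-D count was 2, the smallest value above the floor, at 8 intervals, and it was at least 10 at 398. Interval 5149 (chromosome 11 from 12082385 to 12083011) had counts of 5, 2 and 4 in ZH11-D and of 1, 2 and 1 in ZH11-N, and so hardly differed. Interval 5803 (chromosome 12 from 11101705 to 11102182) had 8, 32 and 2 in ZH11-D, and interval 12547 (chromosome 4 from 19804626 to 19805478) had 35, 2 and 24.
Of the 2922 intervals that were above the floor in ZH11-D and missed the rule by 1 ZH11-N library, 59 had a count of 2 where the floor was needed. Interval 18823 (chromosome 7 from 29218793 to 29219913) was left out with counts of 2, 1 and 120 in ZH11-N and 232, 273 and 335 in ZH11-D. Interval 20187 (chromosome 9 from 10335012 to 10336287) was left out with 58, 1 and 2 in ZH11-N and 148, 316 and 175 in ZH11-D. Interval 14937 (chromosome 5 from 19498082 to 19498787) had 2, 19 and 1 against 91, 138 and 135. Their ZH11-D counts were well above those of the members at the edge.

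When all 21162 intervals were compared between ZH11-D and ZH11-N with limma on log2 of the signal, 0.194% passed an adjusted p-value of 0.05. None of the drought intervals did, 0 of 459, although 340 of them (74.1%) had an unadjusted p-value under 0.05, against 16.1% of all intervals. The quasi-likelihood test of edgeR on the recovered counts called 12 of the 459, all higher in ZH11-D, where it called 0.246% of all intervals. Without ZH11-N3 limma called 33 of them and 395 over all intervals, where the full fit called 41. Without ZH11-N2 it called 5 of them and 83 over all intervals. The median log2FC over all intervals was 0.53, and 0.09 after median ratio scaling, while that of the drought intervals was 4.30 and 3.85. Since the rule was written on this very contrast, these counts describe the members and support nothing.

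SNAC1-N took no part in the rule, and its libraries give a reading of the same places in watered plants with more SNAC1 transcript. SNAC1 protein was not measured in the data analysed here. Of the 459 intervals, 430 (93.7%) overlapped an interval of the table that compares ZH11-D with SNAC1-N, and 368 of these had the same start and end in both. The median count in SNAC1-N1, SNAC1-N2 and SNAC1-N3 was 37, 7 and 20, which is 38.1%, 22.6% and 24.7% of the median interval of each library. All 3 values were far below the 75% to 84.3% that the ZH11-D libraries reached at the same intervals. The ZH11-D side entered the rule, and an interval low in SNAC1-N enters this table mainly through ZH11-D. The gap between SNAC1-N and ZH11-D is therefore in part set by the choice and the match, and the size of that part was not tested. The held-out ZH11-N libraries stood at 18.3% (ZH11-N1), 2.63% (ZH11-N2) and 35.7% (ZH11-N3) at the intervals chosen without them. Those were other sets, of 128, 71 and 344 intervals, so SNAC1-N and ZH11-N are not compared on like intervals here. The tables were normalised separately, and each of these values is relative to its own library.

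Of the 430, 223 (51.9%) were above the floor in all 3 SNAC1-N libraries, 146 in 2, 52 in 1 and 9 in none. Over all matched intervals the share above the floor in all 3 was 87.6%. The share followed the floor in ZH11-N: it was 92.5% where all 6 ZH11 libraries were above the floor, 77.4% where 1 ZH11-N library was at it, 54.4% for the drought intervals with 2 at it and 28.6% for the 42 with all 3. Counting only intervals with the same boundaries in both tables, it was 46.7% for the drought intervals and 76.8% for all. Among the 71 chosen without ZH11-N2 it was 36.6%. The opposite set, 158 intervals above the floor in ZH11-N and at it in at least 2 ZH11-D libraries, had only 65 matched. An interval low in ZH11-D enters this table mainly through SNAC1-N, so the share of the opposite set above the floor is set by the match and is no contrast to that of the drought intervals.

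**Figure D3:**
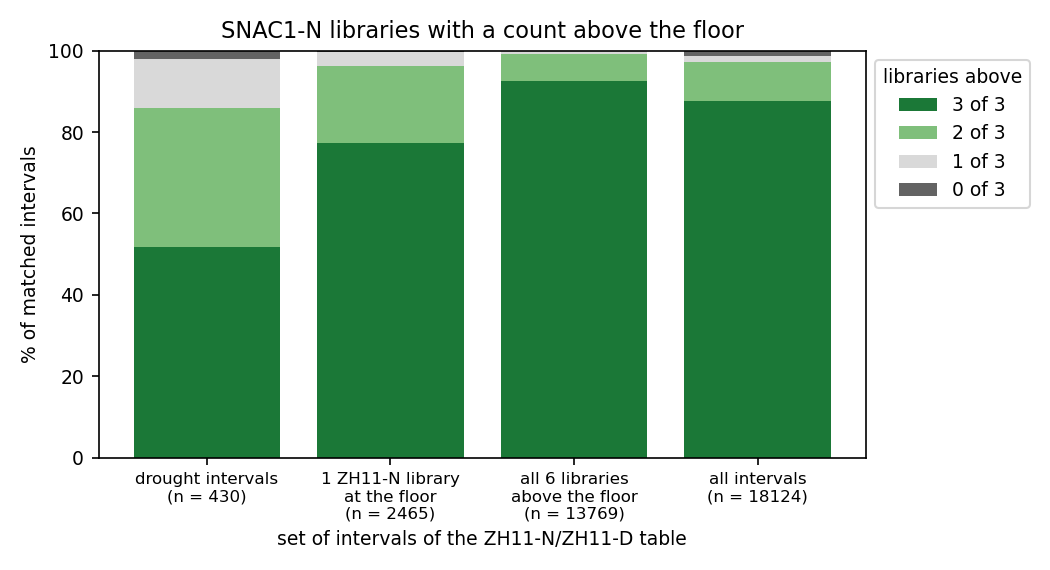
Percent of matched intervals with a count above the floor in 3, 2, 1 or 0 of the SNAC1-N libraries, for the drought intervals and for other sets of the same table, with the number matched under each bar. The drought intervals have 51.9% in the class of 3 libraries and the bar for all intervals has 87.6%.

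Read interval by interval, SNAC1-N was low and seldom at the floor in all its libraries. Among the 8 strongest drought intervals, interval 19224 had a signal of 44.2, 1 and 0.50 in SNAC1-N and of 198, 277 and 355 in ZH11-D on the scale of that table. Interval 5885 read 26.4, 27 and 17.4 in SNAC1-N and 140, 197 and 168 in ZH11-D, and was the most even of them. Interval 5848 was at the floor in all SNAC1-N libraries (0.43, 1 and 0.50), as was interval 5849, while interval 5418 had 18.6, 21 and 0.99. The pair 5417 and 5418 therefore differed in SNAC1-N, since interval 5417 read only 1.30, 1 and 0.50.
The log2FC of ZH11-D over SNAC1-N was above 0 at 396 of the 430 (92.1%), against 57.6% of all intervals. The ZH11-D side of this difference entered the rule, and the match favours intervals with ZH11-D signal, so its direction is in part set by them. In the other matched drought intervals this log2FC was not above 0. The 5 of all 430 with the highest lowest SNAC1-N signal are given next. Among these 5 it was below 0 at intervals 2251 and 9654, and above 0 at intervals 15591, 18859 and 3952. Interval 15591 (chromosome 5 from 25804649 to 25805708) had 94.4, 63 and 96.5 in SNAC1-N and 112, 166 and 93.7 in ZH11-D. Interval 9654 (chromosome 3 from 4775734 to 4776338) had 82.3, 50 and 112 in SNAC1-N and 57.4, 102 and 66.0 in ZH11-D, in a matched interval that reaches further, from 4774921 to 4776399. Interval 2251 (chromosome 1 from 31947831 to 31948266) had 49.8, 56 and 45.8 in SNAC1-N, above the 28.2, 40.5 and 29.9 of ZH11-D. Intervals 18859 on chromosome 7 and 3952 on chromosome 10 completed the 5, with SNAC1-N means of 55.5 ± 6.59 and 51.8 ± 9.88 (SD, n = 3). For these 5 the log2FC of ZH11-D over SNAC1-N was -0.63 to 0.74, and the limma adjusted p was 0.243 to 0.918.

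In limma, fitted over all 21263 intervals of ZH11-D and SNAC1-N, 3.06% passed an adjusted p-value of 0.05, and 2.89% did so with the higher signal in ZH11-D. Of the 430 matched drought intervals, 21 (4.88%) passed, each higher in ZH11-D, and 148 (34.4%) had an unadjusted p-value under 0.05, against 18.5% of all. The ZH11-D side of this comparison entered the rule. The SNAC1-N side did not, but an interval low in SNAC1-N is matched mainly through ZH11-D. The median log2FC was 1.91 for the drought intervals and 0.19 for all, and median ratio scaling gave 1.68 and -0.04. Of the 21, 5 were at the floor in all SNAC1-N libraries, intervals 5848 and 5849 among them. edgeR called 27 of the 430, and 2.38% of all intervals. Interval 5885 had the smallest adjusted p (log2FC 2.85, standard error 0.338, limma adjusted p = 0.00745), ahead of interval 5673 (4.27, 0.637, 0.0126). The count turned on single libraries, and so did that over all intervals, which was 651 in the full fit. Without ZH11-D3 it was 0, with 21 called over all intervals. Without ZH11-D1 or ZH11-D2 it was 1, with 145 and 209 called over all. Without SNAC1-N3 it was 11, with 291 over all.

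Only 44 of the 459 (9.59%) overlapped an interval of the third table, which compares ZH11-N with SNAC1-N, against 66.2% of all intervals and 84.8% of the opposite set. That table was built from the peaks of the watered plants alone. The ZH11-N side entered the rule, and an interval low in ZH11-N enters this table mainly through SNAC1-N, so that the direction of the difference at the 44 was fixed by the choice and the match. None of the 16886 intervals passed in limma (0%) or in edgeR, with 573 and 647 at an unadjusted p-value under 0.05.

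Drought intervals were short. Their median width was 581 bp (quartiles 436 and 780.5 bp), and that of all intervals 835 bp. They made up 6.43% of intervals of up to 400 bp, 3.5% of those of 401 to 600 bp and 0.232% of those above 2000 bp. The opposite set was as short, with a median of 558 bp, so that width does not set the drought intervals apart from it.

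Their place in the genome did. A drought interval had a median of 7 other intervals within 100 kb on either side, all intervals had 20, and the opposite set had 22. Of the 137 intervals with no other interval that near, 25 (18.2%) were drought intervals. The share fell to 8.76% with 1 or 2 others, 7.39% with 3 to 5, 4.47% with 6 to 10, 1.62% with 11 to 20 and 0.637% with 21 or more. The opposite set ran the other way, from 0% with no neighbour to 0.881% with 21 or more.
The relation held within both width classes: among intervals of up to 600 bp the share went from 18% to 1.33%, and among wider ones from 18.4% to 0.414%. Neighbours were also counted in the table of the watered plants, which ZH11-D did not enter. An interval matched in that table always has at least its own match there, so only unmatched intervals were compared. The 415 unmatched drought intervals had a median of 3 neighbours and 19.0% had none, against a median of 12 and 6.07% for the 7146 unmatched intervals of the whole set. For the 71 intervals chosen without ZH11-N2 the median in the first table was 6.

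**Figure D4:**
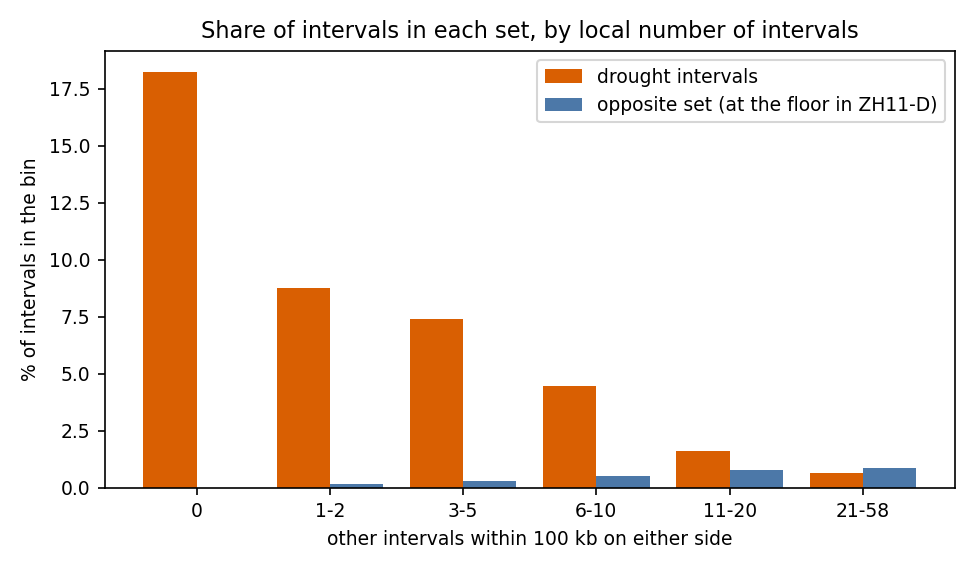
Percent of all intervals that were drought intervals (orange) or belonged to the opposite set (blue), by the number of other intervals within 100 kb on either side. The orange bars fall from 18.2% to 0.637% and the blue bars rise from 0% to 0.881%.

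The same showed by chromosome. Drought intervals were 44 of the 679 intervals on chromosome 11 (6.48%), 42 of 759 on chromosome 12 (5.53%) and 46 of 1188 on chromosome 8 (3.87%). They were 41 of 3396 on chromosome 3 (1.21%) and 47 of 3775 on chromosome 1 (1.25%). Chromosomes 11 and 12 had the sparsest intervals, with medians of 8 and 9 others within 100 kb, and chromosome 3 the densest, with 27. Chromosome 12 also had the highest share of the opposite set among the numbered chromosomes (1.05%), but chromosome 11 had 0.442%, one of the lower ones.

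The trend was not particular to the drought intervals. With them left out, the median log2 difference of ZH11-D over ZH11-N was 1.72 at intervals with no neighbour within 100 kb, 1.21 with 3 to 5 and 0.31 with 21 or more. Scaling by the median ratio gave 1.28, 0.77 and -0.14. The ZH11-N libraries varied more over these classes than those of ZH11-D. From the densest to the sparsest class the median count went from 68, 47 and 101 to 23, 6 and 43 in the ZH11-N libraries, and from 65, 158 and 68 to 58, 125 and 69 in those of ZH11-D. The median log2 difference of ZH11-D over SNAC1-N went from 0.11 to 1.47 over the same classes, with the drought intervals kept in. Intervals are listed where at least some of these libraries had a peak, so the number of neighbours and the difference in signal rest on the same libraries, and the part of this in the trend was not tested.

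**Figure D5:**
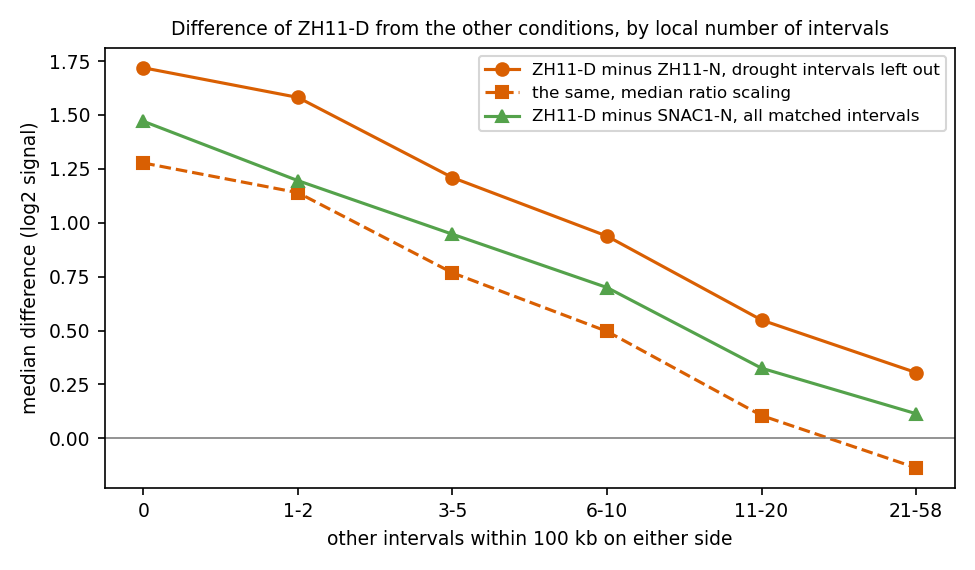
Median difference in log2 signal between ZH11-D and ZH11-N with the drought intervals left out (circles, and squares after median ratio scaling), and between ZH11-D and SNAC1-N for all matched intervals (triangles), by the number of other intervals within 100 kb. The circles fall from 1.72 to 0.31, the squares from 1.28 to -0.14 and the triangles from 1.47 to 0.11.

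In the 4 sparser classes, up to 10 neighbours, 42.9% to 48.0% of the matched drought intervals were above the floor in all SNAC1-N libraries. In the 2 denser classes it was 68.8% and 60.7%. The share over all matched intervals was not taken by class, so whether this is particular to the drought intervals is not known. The 29 drought intervals without a match in the table of ZH11-D and SNAC1-N were weak ones, with a median lowest ZH11-D count of 15 against 38 for the whole set.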

How the data were processed

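ChIP-Seq and RNA-Seq libraries were grouped by their titles. For ChIP-Seq, the authors used bowtie2 for mapping (MSU 7.0) and MACS2 for peaks, and DiffBind is named in the submitters' processing notes. Each deposited signal value equals a whole count times 1 constant of its library, which held for 100% of values within 0.01. The authors also deposited log2 mean signals, a log2 fold and p-values with an FDR, which were not used. The deposited RNA-Seq unit is FPKM, and only SNAC1 was read. There were 0 unused columns of per-sample values.

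Intervals were matched between tables by an overlap of at least 1 bp. limma 3.58.1 (R 4.3.3, trend, two-sided, Benjamini-Hochberg over all intervals) was run on log2 of the signal, and edgeR 4.0.16 on recovered counts was an alternative, which holds only approximately if the counts are net of input. Fits were tested on simulated data. Members and tests were chosen with earlier results of these data known. Named intervals are the 8 with the highest lowest ZH11-D signal, the 5 highest at the floor in all ZH11-N libraries, the 5 highest in SNAC1-N, and 3 on each side of the rule's edge. Genes, promoters, motifs and sequences at the intervals were not analysed here, because no MSU 7.0 genome or annotation was used. Summed counts were 1109002 to 5494104 per library and table, and their precision covers counting error only.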

Additional observations from a re-analysis of the deposited data

How the results depend on the processing

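The number of drought intervals was 42 with all ZH11-N libraries at the floor. Leaving out 1 ZH11-N library made the rule stricter, since both others had to be at the floor, and gave 71 to 344. Leaving out 1 ZH11-D library made it looser and gave 464 to 514. With at least 2 ZH11-D libraries above the floor it was 573, and with ZH11-D counts of at least 10 it was 398. For ZH11-D against ZH11-N, limma called 0 of them, median ratio scaling 2, edgeR 12 and the fits without 1 library 0 to 33. Over all intervals these called, in the same order, 41, 107, 52 (0.246%) and 0 to 395. For ZH11-D against SNAC1-N the 21 calls became 14 with median ratio scaling and 27 with edgeR. They became 15 with a mean count of at least 10, and 0 to 26 without 1 library. Over all intervals the 651 calls became, in the same order, 482, 507 (2.38%), 592 and 21 to 977. An overlap of at least 0.5 left 21. For SNAC1-N against ZH11-N every alternative called 0 of 44.

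Same-numbered ChIP libraries hardly deviated together: the correlation of their deviations was -0.0730 to 0.0582. A low correlation does not by itself show that the replicates were unpaired. With the replicate number as a block, limma called 13 of 459 (2.83%) for ZH11-D against ZH11-N, and 541 of all 21162 intervals. For ZH11-D against SNAC1-N it called 7 of 430 (1.63%), and 332 of all 21263. The number above the floor in all SNAC1-N libraries was 222 with the stricter overlap, 234 to 324 without 1 SNAC1-N library, and 26 of 71 for the members chosen without ZH11-N2, an alternative chosen after seeing the data. For named intervals, 393 of the alternative log2FC values stayed within 1 SD of the main value, 24 moved further and none of the called ones changed sign. That limit differed by interval, so the 393 do not show stability. For ZH11-D against ZH11-N, interval 9654 went from 3.58 to 5.60 without ZH11-N3 and counted as within it. With median ratio scaling interval 5848 went from 6.93 to 6.48 and counted as beyond it. Alternatives on promoter genes and motifs were not run. Without raw and input reads, a count at the floor gives no upper limit on the reads there. The cause of these changes was not tested.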
